A study of Rattus norvegicus with 16 samples.

Results

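The genes described are 10 immediate early genes outside the AP-1 and NR4A families: the transcription factors Egr1, Egr2 and Egr4, the neuronal activity gene Arc, the early response genes Ier2 and Ier3, the phosphatases Dusp1, Dusp5 and Dusp6, and Btg2. Their probe sets were found by matching gene symbols to the platform annotation. The genes themselves were chosen with earlier results of these data known. Of the 10, 9 had a probe set, with 14 probe sets in all among 31042; Btg2 is not analysed here. Each gene is given by its brightest probe set, 1 of 14217 genes tested, and its further probe sets are given beside it.

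RNA of cultured pancreatic islets was measured on 16 one-colour arrays. Islets of male Wistar rats aged 8 weeks were kept in medium with 8 mM glucose and 10% serum in all 3 groups. They were left untreated (n = 5), received Adβgal, an adenovirus with β-galactosidase (n = 6), or received AdNkx6.1, an adenovirus with the beta cell transcription factor Nkx6.1 (n = 5). Each virus was present for 18 h at about 2e+09 particles per ml, and islets were collected 48 h after it was added. The protocol text states 5 replicates per condition, but the table holds 6 Adβgal arrays, all used. The promoters that drive the 2 transgenes, the share of cells infected and any pooling of rats are not given in the sources used here, and whole islets hold several cell types. Titles call the arrays biological replicates without saying which share an islet preparation, so p-values measure only the spread between arrays. Precision is limited by the number of arrays.

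Immediate early genes are transcribed within minutes of a stimulus from factors that are already present, without new protein synthesis. In many cells the signal runs through the Ras-ERK kinase cascade to serum response factor and its ETS partners, which act at the CArG box, or through cyclic AMP and calcium to CREB, which acts at the cyclic AMP response element (CRE). In beta cells glucose and depolarisation are known stimuli. Some products, such as the EGR proteins, are transcription factors, and others, such as the DUSP phosphatases, dephosphorylate the kinases and so close a feedback loop.

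RefSeq promoter windows on the rat build GRCr8 matched 7 of the 9 measured members, all but Arc and Ier3. Only the 250 bases before the start that the table gives each gene were searched and are printed. That start is the outer end of the annotated gene for 5 of the 7; for Egr2 the window lies inside the annotated gene, and for Dusp6 it overlaps it. The windows below are those of Dusp5, Dusp1 and Ier2. Dusp5 and Dusp1 were called between the viruses, and Ier2 was called against untreated islets. All 3 held the string TGACG, and the other motifs of Dusp5 differ from those of Dusp1 and Ier2. Dusp5 lies at chr1:262543524-262543773, Dusp1 at chr10:17184603-17184852 and Ier2 at chr19:40399123-40399372, all on the plus strand. Capitals mark matches to the motifs that were searched.
Dusp5: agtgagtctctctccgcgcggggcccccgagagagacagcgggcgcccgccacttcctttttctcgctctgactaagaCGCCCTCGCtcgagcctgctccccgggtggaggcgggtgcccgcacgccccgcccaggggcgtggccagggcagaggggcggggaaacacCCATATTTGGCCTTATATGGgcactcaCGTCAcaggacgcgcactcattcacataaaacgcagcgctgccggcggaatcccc
Dusp1: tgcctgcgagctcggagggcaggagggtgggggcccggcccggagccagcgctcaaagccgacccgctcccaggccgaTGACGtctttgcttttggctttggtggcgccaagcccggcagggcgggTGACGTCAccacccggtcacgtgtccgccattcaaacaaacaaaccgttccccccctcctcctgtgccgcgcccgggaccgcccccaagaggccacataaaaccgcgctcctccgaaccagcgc
Ier2: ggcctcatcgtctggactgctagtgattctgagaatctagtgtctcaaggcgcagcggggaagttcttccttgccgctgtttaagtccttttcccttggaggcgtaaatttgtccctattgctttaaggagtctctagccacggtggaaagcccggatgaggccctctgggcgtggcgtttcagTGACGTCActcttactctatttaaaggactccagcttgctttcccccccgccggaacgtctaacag
Both strands were searched for the CRE (TGACGTCA), its part TGACG, the EGR site GCGNGGGCG, the ETS string ACCGGAA and the CArG box. A CRE always contains TGACG, so those 2 counts overlap. Positions are counted from the table's start, with -1 for the base before it. The CRE was present in Dusp1, at -124 to -117, and in Ier2, at -66 to -59, and in 1.59% of all 33469 windows of that length. Dusp5 held no CRE and had 2 adjoining CArG boxes, at -82 to -73 and -72 to -63, and an EGR site on the minus strand at -172 to -164. Egr1 and Egr2 also held a CArG box, which 1.5% of all windows did, whereas the EGR site stood in 4.29% of windows. TGACG was found in 6 of the 7 members, among them Dusp5 on the minus strand at -55 to -51, and in 18.2% of windows. The string ACCGGAA, a long form of the ETS site, was found in 0 of the 7 and in 3.33% of windows. Shorter ETS motifs were not searched. A match describes letters only and shows no binding.

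Values are log2 intensities, on which 1 unit is a doubling, and they are compared between arrays for the same probe set only. The summed intensity of 11 measured islet endocrine markers was 186911 to 207599 untreated, 173752 to 192582 with Adβgal and, for AdNkx6.1, 159891 to 187152, and Ins1 and Ins2 were brighter than over 99% of genes. Of these markers 7 were lower with AdNkx6.1 than untreated (Iapp, Pdx1, Slc2a2, Mafa, Sst, Ppy and Hhex). With AdNkx6.1, 3 were lower than with Adβgal (Pdx1, Ppy and Hhex), and Chga was lower with Adβgal than untreated. Of all genes 13.8%, 8.48% and 4.17% were lower in these 3 comparisons, in that order. The Adβgal arrays were the least alike: over all genes, differences between any 2 Adβgal arrays had an SD of 0.275 to 0.709, against 0.217 to 0.267 among untreated and 0.192 to 0.385 among AdNkx6.1 arrays. Acinar markers averaged 1.58, 0.94 and 1.08 log2 above their mean on Adβgal replicates 4, 5 and 6, and leukocyte markers 0.38, 0.50 and 0.86. Comparisons below are therefore given with all arrays, and many of them again without those 3. In RNA of whole islets, a change in the number of cells of a type and a change in RNA per cell cannot be told apart.

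AdNkx6.1 was first compared with Adβgal, the contrast between 2 viruses that differ in the gene they carry. Of 9 members, 4 rose with AdNkx6.1 and 0 fell: Arc, Dusp5, Dusp1 and Ier3, by 1.36- to 1.83-fold. At the same threshold (limma, adjusted p of 0.05) 16.6% of all genes were higher and 8.48% lower. For Arc and Dusp5 all 5 AdNkx6.1 arrays lay above all 6 Adβgal arrays, a separation upward that 10.4% of genes showed. The median change of the members was 0.17 on the log2 scale, against 0.017 over all genes. The count of members lower was also 0 at an unadjusted p under 0.05.

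Arc encodes a cytoskeleton-associated protein of neuronal synapses whose transcription follows activity. On the untreated arrays Arc stood at 8.22, 8.05, 7.91, 7.96 and 8.12. With Adβgal the lowest, median and highest arrays were 6.92, 7.42 and 7.64, and with AdNkx6.1 the arrays read 8.65, 8.11, 7.88, 8.22 and 8.26. Every Adβgal array was thus below every array of both other groups, which overlapped each other. Arc rose 1.83-fold from Adβgal to AdNkx6.1, a log2 change of 0.87 ± 0.14 (SE; limma adjusted p = 0.000206). The exact permutation test gave 0.00433, the smallest p that 5 against 6 arrays allow. Arc also fell 1.62-fold from untreated to Adβgal, a log2 change of -0.70 ± 0.14 (limma adjusted p = 0.0076; exact permutation p = 0.00433). AdNkx6.1 minus untreated was 0.17 ± 0.14 (limma adjusted p = 0.404). The 2 virus comparisons share the 6 Adβgal arrays, so they are no independent pair. The order of mean levels was AdNkx6.1, untreated, Adβgal, and the upper neighbours did not pass the test. Both calls of Arc held under each of the 26 other settings that tested it, including without Adβgal replicates 4, 5 and 6 (0.73 and -0.56).

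Dusp5 encodes a nuclear phosphatase that acts on ERK, and its promoter is the one shown above with 2 CArG boxes. Untreated arrays gave 9.52, 9.71, 9.49, 9.50 and 9.46, a narrow set apart from replicate 2. Adβgal arrays ran from 8.44 through a median of 8.99 to 9.49, and AdNkx6.1 arrays read 9.63, 9.83, 9.63, 9.55 and 9.68. No AdNkx6.1 array overlapped the Adβgal arrays, and 5 of 6 Adβgal arrays lay below every untreated one, the exception being replicate 5. Dusp5 rose 1.60-fold from Adβgal to AdNkx6.1, by 0.68 ± 0.13 (limma adjusted p = 0.00106; exact permutation p = 0.00433). It fell 1.47-fold from untreated to Adβgal, by 0.56 ± 0.13 on the log2 scale (limma adjusted p = 0.0185; exact permutation p = 0.013). That fall did not pass without untreated replicate 2 (-0.51, adjusted p = 0.0568) or with only the 2 groups in the fit (0.0626). AdNkx6.1 minus untreated was 0.13 ± 0.14 (adjusted p = 0.527), so the order of means was that of Arc, with the same neighbours not separated by the test.

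Dusp1 encodes a nuclear phosphatase of p38, JNK and ERK, and its window above holds a CRE. On untreated arrays its level was 11.05, 11.23, 11.02, 11.02 and 11.06. With Adβgal it ran from 10.66 through 11.01 to 11.81, and with AdNkx6.1 it was 11.83, 11.79, 11.77, 11.49 and 11.68. The AdNkx6.1 arrays stood clear of the untreated ones, whereas Adβgal replicates 4 (11.51) and 5 (11.81) reached into the AdNkx6.1 range and the other 4 did not. Dusp1 rose 1.48-fold from Adβgal, by 0.57 ± 0.16 (limma adjusted p = 0.0159, exact permutation p = 0.039). Adjusted over the 27 exact tests, that exact p was 0.0701 and did not pass. Dusp1 rose 1.55-fold from untreated, by 0.64 ± 0.17 (limma adjusted p = 0.00886, exact permutation p = 0.00794, the smallest that 5 against 5 allow). Adβgal minus untreated was 0.067 ± 0.16 (adjusted p = 0.83) and -0.19 without Adβgal replicates 4, 5 and 6, where AdNkx6.1 minus Adβgal was 0.82. The rise from Adβgal did not pass with the mean of its probe sets (0.31, adjusted p = 0.0785) or with only 2 groups in the fit (0.0529). The dimmer probe set of Dusp1, at group means of 5.11 to 5.30 and brighter than 22.4% of probe sets, differed by 0.051 ± 0.16 between the viruses (adjusted p = 0.859).

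Ier3, a regulator of cell survival under stress, had its lowest mean untreated, with arrays at 11.11, 10.84, 10.59, 10.90 and 10.63. Adβgal arrays ran from 10.37 through 11.06 to 11.26, and AdNkx6.1 arrays read 11.06, 11.35, 11.73, 11.55 and 11.45. Of the AdNkx6.1 arrays, 4 lay above all Adβgal arrays and replicate 1 did not. Ier3 rose 1.53-fold from untreated to AdNkx6.1, by 0.61 ± 0.16 (limma adjusted p = 0.0091), a call kept in each of the 27 other settings. It rose 1.36-fold from Adβgal, by 0.44 ± 0.16, at the edge of the threshold (limma adjusted p = 0.0498, exact permutation p = 0.026). Adjusted over the 27 exact tests, that exact p was 0.0584 and did not pass. When 1 array at a time was left out, that second call held only without untreated replicate 1, AdNkx6.1 replicate 1, Adβgal replicate 4 or Adβgal replicate 5, and adjusted p reached 0.124. It was also lost in 5 of 11 other settings (adjusted p up to 0.108), among them 2 groups in the fit (0.0926) and median centring (0.107). Adβgal minus untreated was 0.17 ± 0.16 (adjusted p = 0.511).

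**Figure D1:**
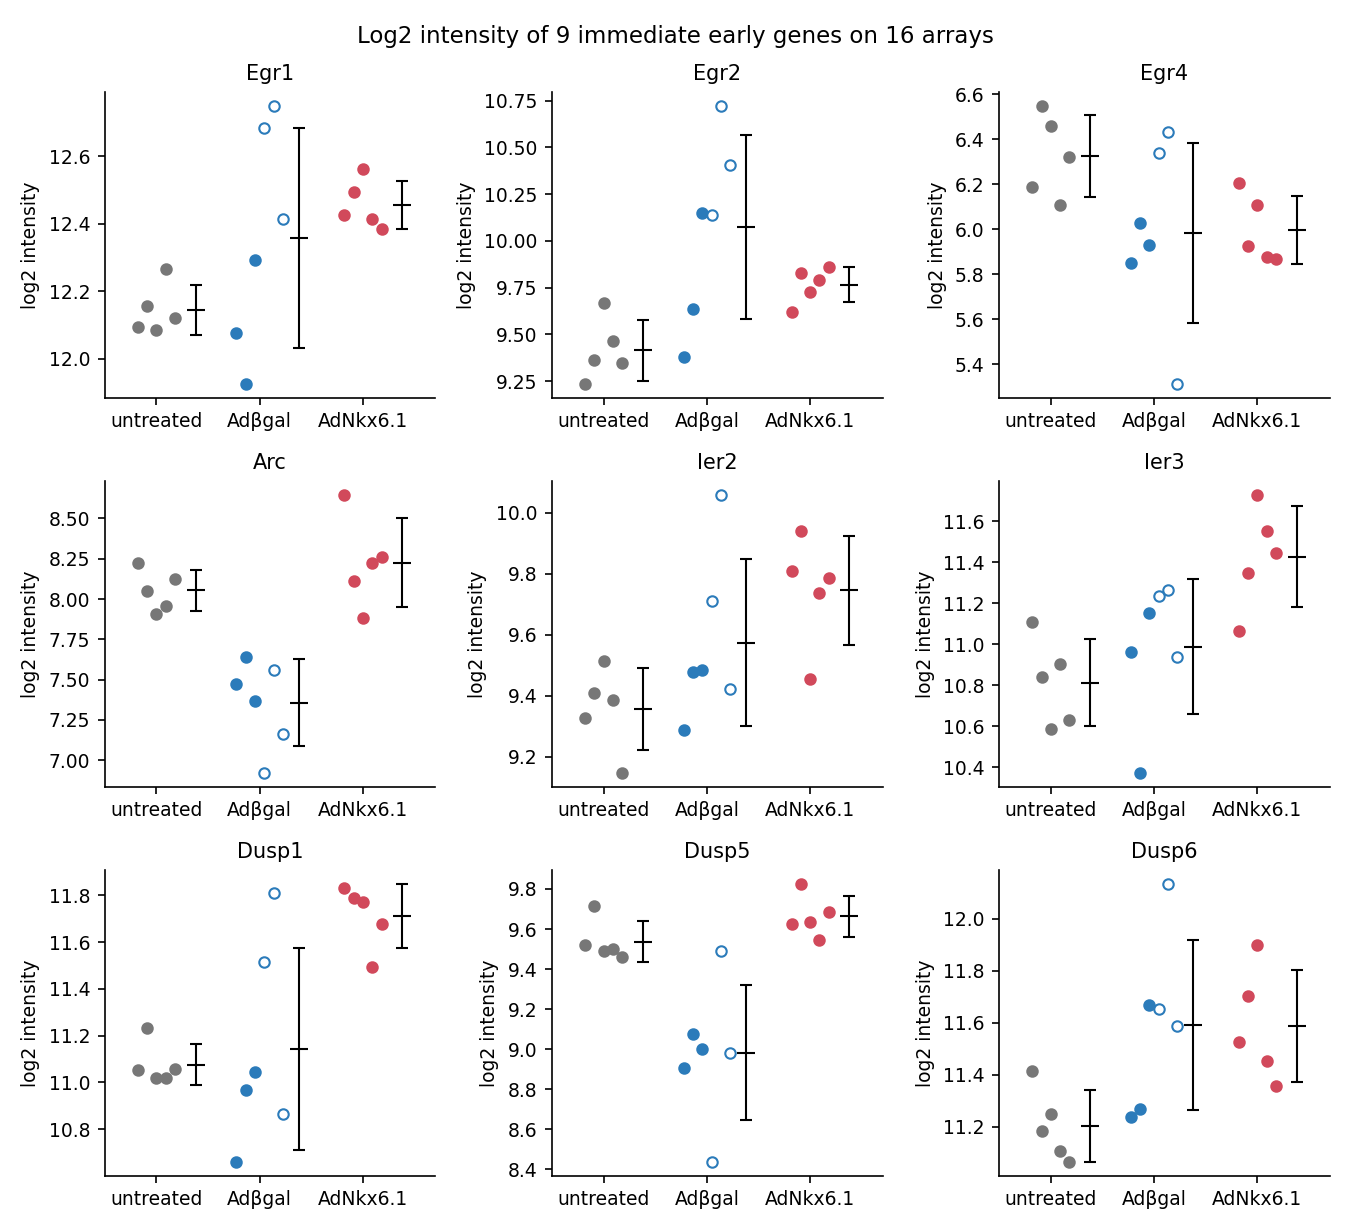
Log2 intensity of the brightest probe set of 9 immediate early genes (vertical axes, which do not start at 0 and differ between panels) on 5 untreated, 6 Adβgal and 5 AdNkx6.1 arrays; points are arrays, open points are Adβgal replicates 4, 5 and 6, and bars show the mean ± SD. The 6 Adβgal points of Arc lie below all other points, and Adβgal replicate 5 is the highest Adβgal point in 8 of the 9 panels.

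Ier2, a nuclear protein of early growth responses, and the 3 EGR factors did not pass between the viruses with all arrays weighted alike. Nor did Dusp6. Ier2 read 9.33, 9.41, 9.51, 9.38 and 9.15 untreated, 9.29, 9.48 and 10.06 as lowest, median and highest with Adβgal, and 9.81, 9.94, 9.46, 9.74 and 9.79 with AdNkx6.1. All AdNkx6.1 arrays but replicate 3 stood above the untreated ones, and Adβgal overlapped both groups. Ier2 rose 1.31-fold from untreated to AdNkx6.1, by 0.39 ± 0.13 (limma adjusted p = 0.031). That call was lost without any 1 of untreated replicates 1, 4 and 5 and AdNkx6.1 replicates 1, 2, 4 and 5, with adjusted p from 0.0527 to 0.083. AdNkx6.1 minus Adβgal was 0.17 ± 0.12 (adjusted p = 0.343), and Adβgal minus untreated 0.22 ± 0.12 (0.289). With array weights, AdNkx6.1 minus Adβgal passed for Ier2 (limma adjusted p = 0.0175).

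Egr1, a zinc finger factor and the best known immediate early gene of the family, read 12.10, 12.16, 12.08, 12.27 and 12.12 untreated. Adβgal arrays ran from 11.93 through 12.35 to 12.75, and AdNkx6.1 arrays gave 12.43, 12.49, 12.56, 12.41 and 12.38. Adβgal arrays thus fell on both sides of the AdNkx6.1 arrays, with replicates 4 and 5 above all of them, while AdNkx6.1 and untreated arrays did not overlap. AdNkx6.1 minus Adβgal was 0.10 ± 0.12 (limma adjusted p = 0.608). AdNkx6.1 minus untreated was 0.31 ± 0.13 and missed the threshold in the fit of all groups (adjusted p = 0.0798; exact permutation p = 0.00794). With only those 2 groups in the fit its adjusted p was 0.00124.

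Egr2, its relative known from nerve myelination, showed the widest Adβgal spread of the 9 genes, an SD of 0.49 (n = 6). The untreated arrays stood at 9.24, 9.36, 9.67, 9.47 and 9.35, Adβgal ran from 9.38 through 10.15 to 10.72, and AdNkx6.1 read 9.62, 9.83, 9.73, 9.79 and 9.86. The AdNkx6.1 arrays lay inside the Adβgal range, and 4 of them lay above all untreated arrays. Egr2 rose 1.58-fold from untreated to Adβgal, by 0.66 ± 0.18 (limma adjusted p = 0.0402, exact permutation p = 0.026). Adjusted over the 27 exact tests, that exact p was 0.0584 and did not pass. The limma call held in 4 of 16 fits that left out 1 array. They were those without Adβgal replicate 1 or 2, untreated replicate 3 or AdNkx6.1 replicate 3. Without Adβgal replicates 4, 5 and 6 it was 0.31 (adjusted p = 0.234), and with only 2 groups in the fit adjusted p was 0.109. AdNkx6.1 minus Adβgal was -0.31 ± 0.18 (adjusted p = 0.242), but 0.043 without those 3 arrays; without Adβgal replicate 1 it was -0.45 and passed (0.0423). The dimmer Egr2 probe set differed by -0.13 ± 0.17 between Adβgal and untreated (adjusted p = 0.667), and the mean of both by 0.26 (0.181).

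Egr4 was dim, brighter than 31.8% of probe sets, and no detection call was used, so its levels may lie near background. Its arrays ran from 6.11 to 6.55 untreated, 5.31 to 6.43 for Adβgal and 5.87 to 6.20 for AdNkx6.1. No comparison of this probe set passed in the fit of all groups with all arrays weighted alike. Its second and dimmer probe set was 0.63 ± 0.12 lower with Adβgal than untreated on the log2 scale, with no overlap of arrays (limma over all probe sets, adjusted p = 0.00621), where 4.07% of probe sets were lower. The 2 probe sets therefore disagreed on the call, though both means were lower with Adβgal. With the mean of both probe sets, Adβgal minus untreated was -0.48 and passed, and it also passed with array weights. AdNkx6.1 minus untreated was called lower in 4 other settings (limma adjusted p down to 0.00476).

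Dusp6, a cytoplasmic phosphatase that acts on ERK, read 11.41, 11.18, 11.25, 11.10 and 11.06 untreated. Adβgal arrays ran from 11.24 through 11.62 to 12.13, and AdNkx6.1 arrays read 11.52, 11.70, 11.90, 11.45 and 11.35. Both virus groups stood mostly above the untreated arrays and overlapped each other. AdNkx6.1 minus Adβgal was -0.0045 ± 0.14 (limma adjusted p = 0.986), while AdNkx6.1 minus untreated was 0.38 ± 0.15 (0.0622) and Adβgal minus untreated 0.39 ± 0.14 (0.104). Of its 2 further probe sets, 1 was higher with AdNkx6.1 than untreated without overlap (0.55 ± 0.15, adjusted p = 0.0124 over all probe sets), where 10.2% of probe sets were higher, and the other differed by 0.35 ± 0.17 (0.168).

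**Figure D2:**
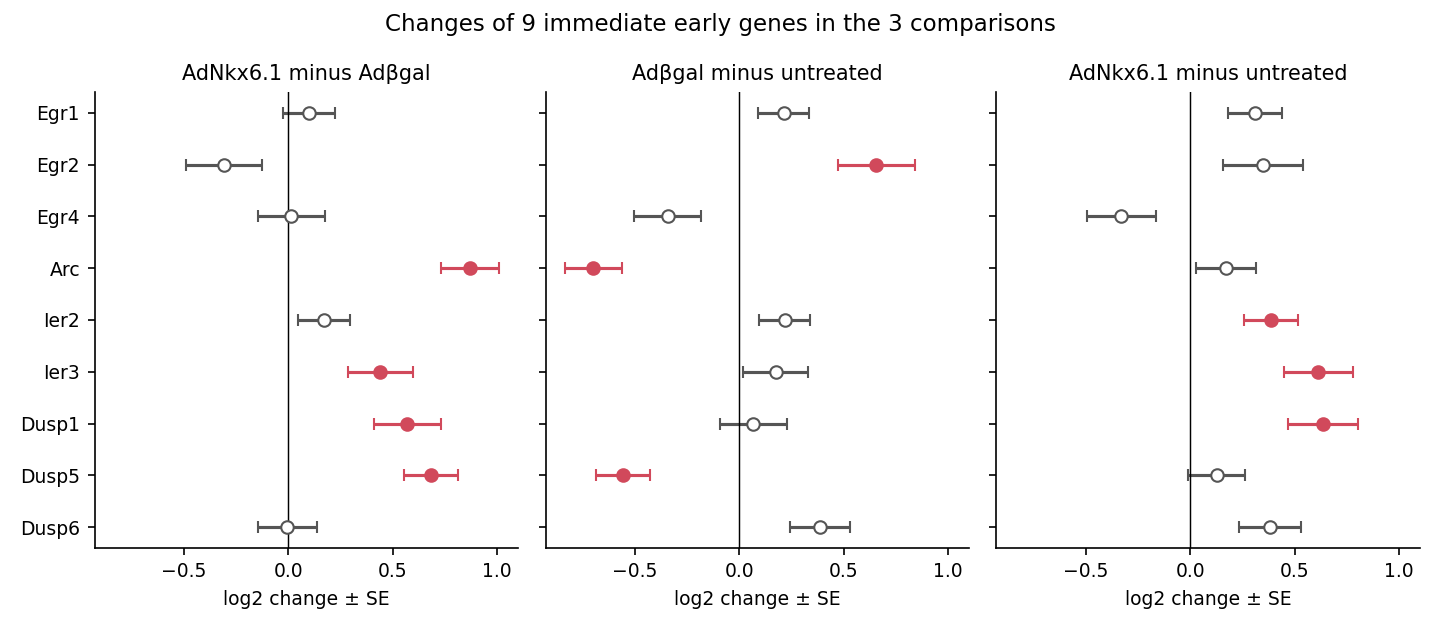
Log2 change ± SE of each of the 9 genes in the 3 comparisons, from limma; filled points passed an adjusted p of 0.05. Arc and Dusp5 are filled to the right in AdNkx6.1 minus Adβgal and to the left in Adβgal minus untreated, which share the Adβgal arrays, and unfilled in AdNkx6.1 minus untreated.

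The control virus was then set against no virus. Egr2 rose, Arc and Dusp5 fell, and the other 6 members did not pass; among all genes 2.84% were higher and 4.17% lower. The members' median was 0.17, against -0.037 over all genes. Only Arc separated all arrays of the groups, downward, as 4.83% of genes did. Without Adβgal replicates 4, 5 and 6 the members called were 0 higher (limma; also 0 at an unadjusted p under 0.05) and 2 lower, Arc and Dusp5, and among all genes 1.72% were higher and 2.16% lower.

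AdNkx6.1 against untreated combines the virus and the gene it carries. Dusp1, Ier3 and Ier2 rose and 0 of 9 fell (limma; also 0 at an unadjusted p under 0.05), while 16.9% of all genes were higher and 13.8% lower. Dusp1 and Egr1 separated all 5 arrays of each group, upward, as 17.4% of genes did. The median of the members was 0.35, against -0.012 over all genes. This fit takes its spread from all 3 groups. Without Adβgal replicates 4, 5 and 6, 6 members were higher and 1 lower (limma), as were 3231 and 2913 of 14217 genes. With only the 2 groups compared, 6 members were higher (Egr1, Egr2, Ier2, Ier3, Dusp1 and Dusp6) and Egr4 lower, and the shares of all genes were 23.3% and 20.6%.

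The Adβgal group was the most variable for these genes. Its SD exceeded the untreated SD in 9 of 9 members and the AdNkx6.1 SD in 8 of 9, all but Arc; among all genes these shares were 87.0% and 79.4%. Member SDs ran from 0.27 to 0.49 for Adβgal, 0.074 to 0.21 for untreated and 0.071 to 0.28 for AdNkx6.1. Adβgal replicate 5 was the highest of its group for 8 of 9 members, again all but Arc. No other array was highest in its group for more than 3 members. Adβgal replicate 1 was the lowest of its group for 4 of 9 members (Egr2, Ier2, Dusp1 and Dusp6). It stays in when replicates 4, 5 and 6 are left out. How often each array was highest or lowest over all genes is not given here. Without Adβgal replicates 4, 5 and 6, 6 members were higher with AdNkx6.1 than with Adβgal and 0 lower (limma; also 0 at an unadjusted p under 0.05). Then 18.0% of all genes were higher and 10.4% lower. The further 2 were Egr1, with a change of 0.36 (adjusted p = 0.00499), and Ier2, with 0.33 (0.0338).

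**Figure D3:**
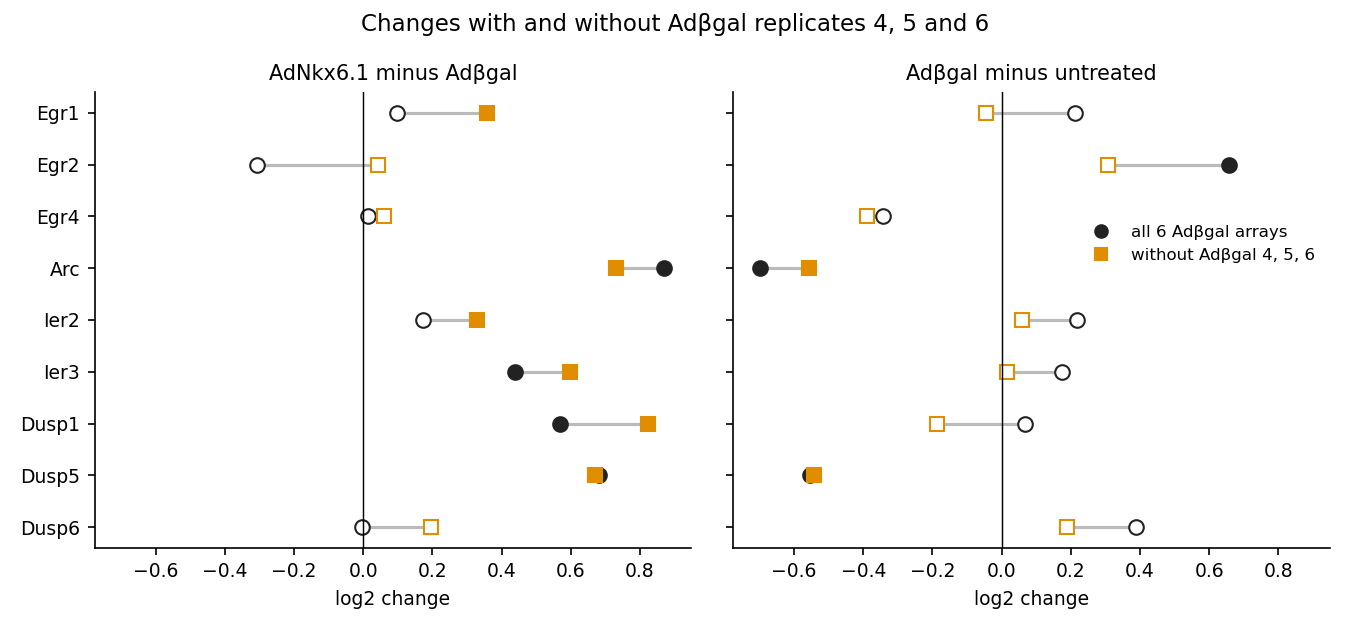
Log2 change of each of the 9 genes with all 6 Adβgal arrays (circles) and without Adβgal replicates 4, 5 and 6 (squares), for AdNkx6.1 minus Adβgal and Adβgal minus untreated; filled symbols passed an adjusted p of 0.05. Egr1 and Ier2 are filled on the left only as squares, Egr2 on the right only as a circle, and Dusp5 hardly moves.

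Markers of other cells and of stress were read on the same arrays. With AdNkx6.1, 16.6% of all genes were higher and 8.48% lower than with Adβgal, and 16.9% and 13.8% against untreated. Summed intensity of 6 measured heat shock genes was 26166 to 28063 untreated, 29776 to 37691 with Adβgal and, for AdNkx6.1, 32710 to 36596, and 4 of the 6 (Hspa1a, Hsph1, Dnajb1 and Bag3) were higher with AdNkx6.1 than in each other group. Of 8 measured duct markers 4 were higher with AdNkx6.1 (Krt7, Krt8, Krt18 and Muc1), with sums of 49476 to 55044 untreated, 48384 to 58357 with Adβgal and, for AdNkx6.1, 66811 to 71801. Acinar sums, over 11 of 14 listed genes, were 22667 to 34866, 18043 to 74726 and 20005 to 44274 in the same order, and 3 were lower with AdNkx6.1 than with Adβgal (Cpa1, Ptf1a and Cuzd1). Endothelial sums, over 9 of 10 genes, were 8850 to 10861, 4738 to 25525 and 8345 to 17018, with 0 called in any comparison (limma; 2 from untreated to Adβgal at an unadjusted p under 0.05 and 0 in the others). On Adβgal replicate 5, endothelial markers averaged 1.32 and heat shock genes 0.53 above their means. On Adβgal replicate 1, deviations from the mean averaged -1.42 for endothelial and -0.41 for stellate markers. Stellate sums, over 10 genes, were 44681 to 52758, 45222 to 53529 and 48074 to 52904, and leukocyte sums, over 13 of 14, were 7941 to 9516, 8147 to 14071 and 6908 to 10608. Between the viruses, Dcn and Tagln of the stellate list were lower with AdNkx6.1. Of the leukocyte list Lck was higher and Adgre1 lower. Without Adβgal replicates 4, 5 and 6, 0 stellate genes were lower in that comparison (limma; also 0 at an unadjusted p under 0.05). Then 0 leukocyte genes were lower (1 at an unadjusted p under 0.05) and 1 was higher. Of the acinar genes 1 was lower, with a list median of -0.094, against -1.06 with all arrays. The counts of duct and heat shock genes higher stayed at 4 each, where 18.0% of all genes were higher and 10.4% lower. No marker was listed at 0. The part of these cells, of the endocrine markers and of stress in the changes of the 9 genes was not tested.

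Among 39 measured of 40 other immediate early genes, 8 were higher and 8 lower with AdNkx6.1 than with Adβgal. Of all genes 16.6% were higher and 8.48% lower. The median change of the list was -0.00036, against 0.017 over all genes. Klf4, Klf6, Myc, Ccn2, Ifrd1, Sgk1, Tiparp and Rgs2 were lower. Higher were Gadd45b, a stress sensor (1.77 ± 0.17), the nuclear factor Csrnp1 (1.45 ± 0.10), Maff, a small MAF factor (1.43 ± 0.18), and Zfp36, an mRNA decay factor that binds AU-rich elements (0.72 ± 0.12), with limma adjusted p of 4.6e-08 to 0.00035. These 4 were named for the smallest p of the list in this comparison, so a separation of their arrays is no further result. All AdNkx6.1 arrays lay above all Adβgal arrays in each of them, as in 10.4% of all genes. Atf3, Sik1, Homer1 and Plk2 were also higher. Without Adβgal replicates 4, 5 and 6 the counts were 7 higher and 5 lower, beside 18.0% and 10.4% of all genes. From untreated to Adβgal 4 of the 39 were higher, Atf3, Maff, Myc and Ccn2, and Gem, a small GTPase, was lower (-0.62 ± 0.12, adjusted p = 0.00672). In that comparison 2.84% of all genes were higher and 4.17% lower. Without the same 3 arrays, 0 of the 39 were higher there (limma; 7 at an unadjusted p under 0.05), and Gem alone was lower. Of all genes 1.72% were then higher and 2.16% lower.

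AP-1 and NR4A genes, the other classic immediate early families, had 5 of 10 higher with AdNkx6.1 than with Adβgal (Fos, Fosb, Fosl1, Nr4a1 and Nr4a3), 0 lower (also 0 at an unadjusted p under 0.05), and a median change of 0.83. From untreated to Adβgal, 0 of 10 passed (1 at an unadjusted p under 0.05), where 2.84% of all genes were higher and 4.17% lower. Between the viruses 16.6% of all genes were higher and 8.48% lower, and the members' median was 0.17.

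Feedback regulators of the MAP kinase cascade had 6 of 19 measured genes higher with AdNkx6.1 than with Adβgal and 1 lower. Of all genes 16.6% were higher and 8.48% lower. The median change of the list was 0.20. Higher were Nab2, a corepressor that binds EGR proteins (0.93 ± 0.12), the ERK target Etv5 (0.61 ± 0.095), Dusp3, a further MAP kinase phosphatase (0.54 ± 0.080), and Spry4, Errfi1 and Etv4. The ETS factor Etv1 was lower (-1.12 ± 0.17). Nab2, Etv5, Dusp3 and Etv1 were named for the smallest p of the list (limma adjusted p of 2.1e-05 to 0.00017). Each separated the arrays of the 2 groups, which after that choice is no further result. Upward, 10.4% of all genes did so. Without Adβgal replicates 4, 5 and 6 the list had 6 higher and 4 lower, where 18.0% of all genes were higher and 10.4% lower. From untreated to Adβgal 1 of the 19 was lower, Dusp8, and 0 were higher (also 0 at an unadjusted p under 0.05). In that comparison 4.17% of all genes were lower and 2.84% higher. The call of Dusp8 was lost in 13 other settings (limma adjusted p = 0.208 without Adβgal replicates 4, 5 and 6). Among 23 measured of 30 listed genes of Ras-ERK and CREB/SRF signalling, 0 were higher with AdNkx6.1 than with Adβgal (limma; 1 at an unadjusted p under 0.05) and 3 were lower, Nras, Prkacb and Araf. Each of those 3 calls was lost without AdNkx6.1 replicate 4 (limma adjusted p of 0.0567, 0.0613 and 0.0885). Without Adβgal replicates 4, 5 and 6 this list of 23 had 2 higher and 1 lower, beside 18.0% and 10.4% of all genes.

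**Figure D4:**
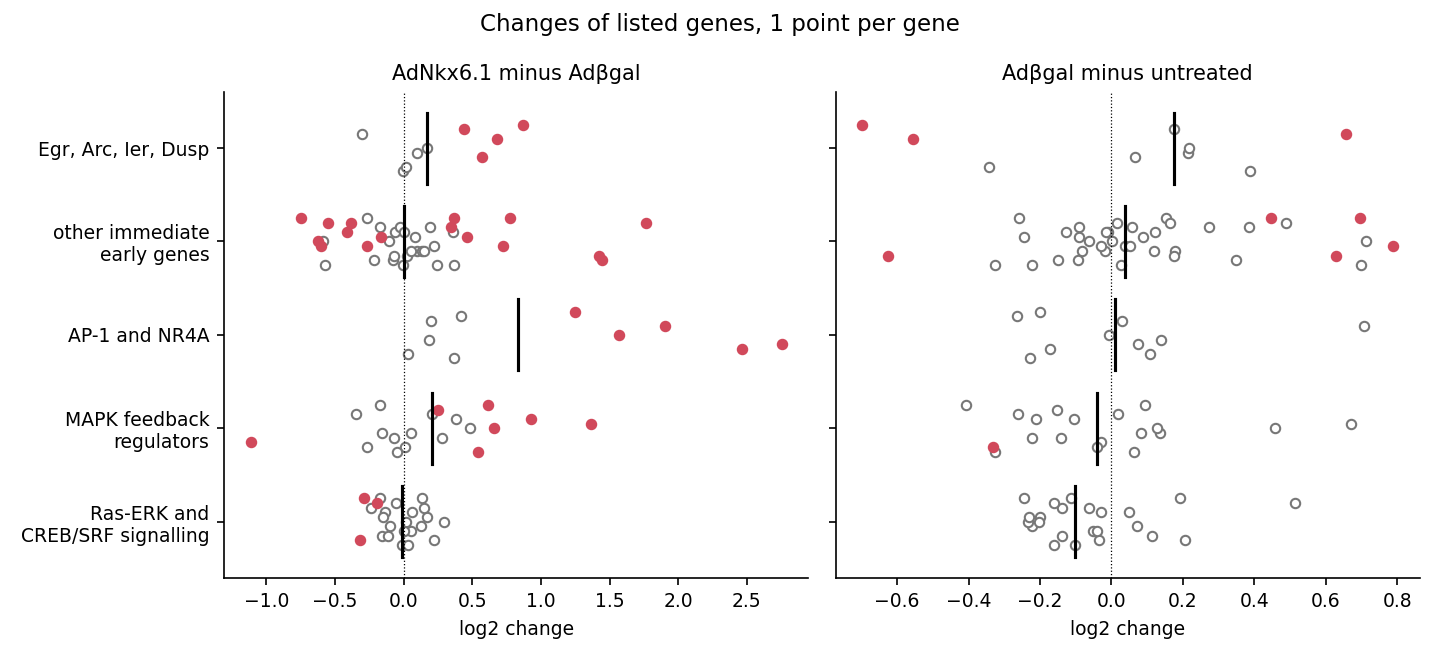
Log2 change of each measured gene (1 point per gene) of the 9 members and of 4 related lists, for AdNkx6.1 minus Adβgal and Adβgal minus untreated; filled points passed an adjusted p of 0.05 and vertical bars are medians. On the left the AP-1 and NR4A genes reach the largest changes drawn and have a median of 0.83, against 0.17 for the members.

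Genes whose profile was most like that of a called member were found by the root mean square difference of log2 values over the 16 arrays, each gene centred on its own mean. They were Dhcr7 (0.141), Pdk2 (0.166) and Fads1 (0.168) for Arc, whose own SD over the arrays was 0.46. For Dusp5 they were Srebf1 (0.153), Pfkfb3 (0.154) and Mindy1 (0.159), for Dusp1 Ggt5 (0.166), Nfatc2 (0.172) and Bub1b (0.178), and for Ier3 Rhou (0.183), Erf (0.184) and Chrnb1 (0.192). Among the members themselves the closest pairs were Egr1 with Dusp6 (0.167) and Egr1 with Ier2 (0.180), and Arc was closest to Dusp5 (0.226).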

How the data were processed

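Islet RNA was hybridised to 16 arrays of 3 groups. The deposited table holds probe set intensity on a linear scale, normalized by the authors with RMA per the submitters' processing notes; its version is not given in the sources used here. RMA equalises arrays, so a shift common to most genes would be removed. The log2 of each deposited intensity was taken, with no pseudocount and no detection filter. Array medians were 264.8 to 296.2. Of 31099 probe sets, 57 controls were left out and 20826 had 1 gene symbol; the brightest probe set stood for each of 14217 genes. Groups came from the labels, and limma 3.58.1 (R 4.3.3; lmFit and eBayes, 2-sided) was fitted to all groups at once, with Benjamini-Hochberg adjustment over all genes; the script was tested on simulated data. Exact permutation tests (SciPy 1.17.1, 2-sided) compared group means of single members; of 27 such tests, 10 had an adjusted p under 0.05. Tables used pandas 2.3.3 and figures matplotlib 3.10.9. Members, lists and motifs were chosen with earlier results of these data known. The naming rule took all members, up to 4 genes per list with the smallest p in each virus comparison, and the 3 genes most like each called member; genes counted in a list may be named beside them. Other settings changed the probe set rule, scaling, pseudocount, dim genes, fit and arrays. Replicate numbers gave no clear pairing of the arrays: correlations of deviations over 15 pairs ran from -0.387 to 0.249. This check cannot exclude that some arrays share an islet preparation. Btg2 is not analysed here.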

Additional observations from a re-analysis of the deposited data

Results flagged for a closer look

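Of 42 groups of values tested (14 probe sets in 3 groups), 3 held an array far from the rest of its group, by the gap to its nearest neighbour over the group's range; chance gives about 1 in 20. Untreated replicate 2 was high for Dusp1, at 11.23 against 11.06 for the next array (a ratio of 0.809, where 0.71 is the limit for 5 arrays), and for Dusp5, at 9.71 against 9.52 (0.775). Adβgal replicate 2 was low for Ier3, at 10.37 against 10.94 (0.632, limit 0.625 for 6 arrays); without it, AdNkx6.1 minus Adβgal was 0.32 (limma adjusted p = 0.0833) against 0.44.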

How the results depend on the processing

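Of 717 alternative values of the 9 members, 624 kept direction and side of the threshold, 46 lost a call, 26 gained one and 21 turned sign, all of the last among values without a call. Members higher with AdNkx6.1 than with Adβgal numbered 4, and 2 with dim genes left out (which drops Arc, Dusp5, Ier2 and Egr4), with 2 groups in the fit and with the replicate block, and 3 to 4 with 1 array left out; 0 to 1 were lower then. From untreated to Adβgal, 1 higher became 0 with the mean of probe sets, 2 groups, the replicate block or without Adβgal replicates 4, 5 and 6, and 0 to 1 with 1 array left out; 2 lower became 0 with dim genes left out, 1 with 2 groups and 1 to 2 with 1 array left out. Against untreated, 3 higher with AdNkx6.1 became 6 with array weights, 2 groups or without those 3 arrays, 2 with the block and 2 to 5 with 1 array left out, where 5 was reached without Adβgal replicate 5; 1 was lower with the mean of probe sets, array weights, 2 groups or without the 3 arrays. Sign changes were -0.046 for Egr1 (Adβgal minus untreated, without the 3 arrays), 0.043 for Egr2 (AdNkx6.1 minus Adβgal, likewise), -0.097, -0.049 and -0.12 for Egr4 (AdNkx6.1 minus Adβgal; quantile scaling, median centring, block; -0.12 to 0.10 with 1 array left out; the block gave the same -0.12 as leaving out Adβgal replicate 6), -0.090 and -0.19 for Dusp1 (Adβgal minus untreated; weights, without the 3 arrays; -0.066 to 0.16), and 0.059 and 0.20 for Dusp6 (AdNkx6.1 minus Adβgal; mean of probe sets, without the 3 arrays; -0.082 to 0.10). The cause of other changes was not tested.

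Numbers shared by replicates gave 4 of 15 best matches, 3 of 15 correlations over 0.1, and with the replicate block, in which Adβgal replicate 6 shares its number with no array and so adds nothing, 152 higher and 241 lower genes from untreated to Adβgal, against 404 and 593 with no block and 269 and 378 without that array alone. The block also ended the calls of Dusp1 (0.51, adjusted p = 0.0659) and Ier3 (0.43, 0.108) between the viruses, Egr2 from untreated to Adβgal (0.59, 0.084) and Ier2 against untreated (0.39, 0.0665); leaving out Adβgal replicate 6 alone ended those of Ier3 and Egr2 and not those of Dusp1 and Ier2. Genes higher and lower with AdNkx6.1 than with Adβgal numbered 2354 and 1206 (66.1% higher), 2070 and 1800 with quantile scaling (53.5%), 1884 and 1868 with median centring (50.2%), 1551 higher with dim genes left out, 1882 lower with weights and 762 lower with 2 groups. From untreated to Adβgal they were 712 and 1078 with weights, 212 and 309 with 2 groups, 245 and 307 without the 3 arrays, and 903 lower with centring. Against untreated, 2404 and 1956 (55.1%) became 1894 and 3154 with centring (37.5%) and 3862 and 3607 with weights, and 1515 were higher with dim genes left out. Left-out single arrays gave 212 to 589 higher and 296 to 914 lower from untreated to Adβgal. Dim probe sets, among them those of Egr4, limit what intensity can show.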
